A study of Mus musculus with 2 samples.

Results

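Endothelial cells of the mouse parotid gland were taken from single-cell RNA sequencing of 1 control and 1 irradiated (IR) library. They were chosen by their counts. A barcode was kept if it had at least 200 genes and at most 10% of its UMIs (unique molecular identifiers, each counted as 1 RNA molecule) on mitochondrial genes. A kept cell was called endothelial if Pecam1, Plvap, Flt1, Emcn, Kdr and Cdh5 together had at least 3 UMIs, if the T-cell genes Cd3d, Cd3e and Cd3g and the B-cell genes Cd79a, Cd79b and Ms4a1 had 0 UMIs, and if Col1a1, Col1a2, Col3a1 and Dcn together had fewer than 3. This gave 178 endothelial cells among 10362 kept cells, of which 105 were among 4105 control cells and 73 among 6257 IR cells.

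The glands came from wild-type female mice of the C3H strain. The IR mice received 6 Gy per day to the head and neck on 5 days, 30 Gy in total, and their glands were taken 10 months later. Each library pooled glands from 2 mice. There was thus 1 sample per condition and no test between conditions was run, and the spread between mice cannot be told apart from the effect of the treatment. All intervals are 95% intervals and cover counting error only. The control library had 20125000 UMIs in kept cells, the IR library 21939691, and the endothelial cells held 400840 and 420230 of these. 12 barcodes were present in both libraries, none was an endothelial cell in both, and 1 control member shared its barcode with a barcode of the IR library.

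Endothelial cells line blood vessels. In exocrine glands most of them form capillaries, whose pores are spanned by a diaphragm built from Plvap, and which bring the fluid from which saliva is made. They sense VEGF through Flt1 and Kdr, hold together through Pecam1 and VE-cadherin (Cdh5), let leukocytes pass, and lay down a basement membrane. Arteries, veins, high endothelial venules (HEVs, where lymphocytes leave the blood) and lymphatic vessels each have marker genes of their own.

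The promoters of the rule genes are shown because these genes set who is a member. That of Car4, which encodes a carbonic anhydrase on the capillary surface, is shown too. Without the mixed members defined below, its level differed most between the libraries among the capillary genes. Without the leukocyte-marked cells, also defined below, Cd36 differed more (ratio 2.19, against 0.489 for Car4). RefSeq promoter sequences (GRCm38.p6) were matched for Flt1, Emcn and Kdr of the 6 rule genes. The 250 bases before the start are printed from 5′ to 3′ on the strand of the gene, with matches to CAGGAAG, a form of the ETS motif, in capitals on either strand.
Flt1 (chr5:147726012-147726261, minus strand): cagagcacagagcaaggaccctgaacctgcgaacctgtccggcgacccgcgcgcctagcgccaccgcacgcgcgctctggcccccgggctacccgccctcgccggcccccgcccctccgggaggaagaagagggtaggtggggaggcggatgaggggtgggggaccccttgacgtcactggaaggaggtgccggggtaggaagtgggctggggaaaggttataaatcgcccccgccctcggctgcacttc
Emcn (chr3:137340828-137341077, plus strand): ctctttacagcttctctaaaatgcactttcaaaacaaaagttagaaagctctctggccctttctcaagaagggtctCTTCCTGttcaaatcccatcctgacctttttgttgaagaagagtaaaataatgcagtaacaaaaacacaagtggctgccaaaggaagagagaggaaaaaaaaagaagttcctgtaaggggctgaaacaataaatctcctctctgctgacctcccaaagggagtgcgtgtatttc
Kdr (chr5:75978456-75978705, minus strand): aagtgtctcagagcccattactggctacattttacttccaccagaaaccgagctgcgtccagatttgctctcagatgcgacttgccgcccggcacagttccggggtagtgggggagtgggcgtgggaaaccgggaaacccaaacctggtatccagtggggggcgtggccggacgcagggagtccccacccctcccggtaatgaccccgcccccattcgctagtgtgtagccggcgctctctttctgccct
Car4 (chr11:84957504-84957753, plus strand): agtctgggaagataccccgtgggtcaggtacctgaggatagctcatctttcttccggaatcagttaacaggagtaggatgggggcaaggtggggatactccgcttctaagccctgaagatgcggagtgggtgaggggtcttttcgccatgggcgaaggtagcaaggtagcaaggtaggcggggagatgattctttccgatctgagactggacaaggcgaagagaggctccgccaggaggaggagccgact
The motif was found in 1 of the 3 rule genes matched, in 3 of the 14 other pan-endothelial genes matched (21.4%) and in 10.5% of 27025 promoters of the same length. AGATAA, which Gata factors recognise, was found in 0 of the 3 and 1 of the 14 (7.14%), and in 10.2% of all promoters. ACAATGG, bound by Sox factors, was found in neither set, and in 3.07% of all. The motifs were searched on both strands, and a match is a description of letters only.

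Endothelial cells made up 2.56% (2.10 to 3.09) of the kept control cells and 1.17% (0.916 to 1.46) of the kept IR cells. Among cells with no UMI of the leukocyte gene Ptprc they made up 5.04% (4.13 to 6.09) and 2.79% (2.17 to 3.52). The share was lower in the IR library with either denominator, and fewer endothelial cells cannot be told apart from more cells of other types or from a different yield. The criteria against other cell types left out unequal shares. At least 3 UMIs of the 6 genes were present in 117 control and 113 IR barcodes. Of these, T-cell genes left out 6 (5.13%) and 23 (20.4%), and B-cell genes 7 (5.98%) and 16 (14.2%). With at least 10 UMIs of the 6 genes and no other criterion, the cells numbered 96 (2.34%, 1.90 to 2.85) and 76 (1.21%, 0.958 to 1.52), and the IR share was again the lower one. At the threshold, 7 control and 3 IR members had 3 UMIs of the 6 genes, and 3 control and 9 IR cells that met the other criteria had 2.

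The endothelial label was checked with genes the rule did not name, as a description, since every gene of these cells is bound to their choice. At least 1 of 24 other pan-endothelial genes had a UMI in 102 of 105 control and 71 of 73 IR cells. All 6 rule genes had UMIs in 49 control (46.7%) and 37 IR cells (50.7%). The T-cell receptor gene Trac had 0 UMIs. Of 10 fibroblast genes, 4 of which the rule limited, 4 had UMIs in either library, with 9 control and 14 IR UMIs in all, most of them of Gsn. The medians were 2471 (control) and 2463 (IR) UMIs per endothelial cell and 1210 and 1298 genes, and 9 control (8.57%) and 12 IR members (16.4%) had fewer than 1000 UMIs.

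A few members carried markers of a second cell type. Called mixed members, they had at least 10 UMIs of the epithelial genes Epcam, Krt8, Krt18 and Cldn3, or of the macrophage genes Adgre1, Csf1r, C1qa, C1qb and C1qc. There were 3 in the control library, 1 epithelial and 2 macrophage, and 5 in the IR library, 4 epithelial and 1 macrophage. The 4 epithelial ones in the IR library had 26803 to 71152 UMIs each and held 48.1% of all UMIs of the IR endothelial cells, against 7.52% for the 1 in the control library. A list of 16 secretory genes took 9.54% (control) and 32.3% (IR) of the endothelial UMIs, but 5.35% and 4.15% without mixed members, where B cells had 12.9% and 9.45%. Some unmixed members with few UMIs had larger shares, such as 623 of 1053 UMIs in 1 control cell and 302 of 596 in 1 IR cell. Whether a mixed member is a doublet was not tested, since by its own threshold a doublet caller marked 45 of 4105 control and 2 of 6257 IR cells, too few in the IR library to be relied on, and the cells with the highest doublet scores included 0 of the 8.

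The definition of mixed members did not use leukocyte genes. The leukocyte list had 103 and 339 CPM in control and IR endothelial cells, against 16633 and 40049 CPM in B cells, with all members its most abundant gene was Laptm5 in the control and Cd52 in the IR library, and without mixed members all 3 of its genes with enough UMIs were past 2-fold higher. Macrophage and dendritic genes had 45.8 and 33.4 CPM, against 10722 and 9596 CPM in macrophages. Fibroblast genes had 14.3 and 42.9 CPM and genes of pericytes and smooth muscle 48.6 and 124 CPM, against 17147 and 13511 CPM and 996 and 1034 CPM in stromal cells. Of the unmixed members, 1 control and 2 IR cells had at least 10 UMIs of the leukocyte list and are called leukocyte-marked. They held 50% and 52.1% of its UMIs, and 1.89% and 12.5% of all UMIs of unmixed members. Without these 3 cells the leukocyte list had 52.5 and 185 CPM, still higher in the IR library. The chemokine Ccl5 had 7 UMIs in 6 control cells and 220 UMIs in 8 IR cells without mixed members, and 6 UMIs in each library without the 3 cells. Ccr7, a receptor of lymphocytes and dendritic cells, had 1 UMI in 1 control cell and 43 UMIs in 3 IR cells, and then 1 UMI in each library. Leaving out the 3 cells also made the IR total smaller, which moved up the ratios of genes with no UMI in them. Values without them are given for the genes named with both below, an alternative chosen after the data were seen. The part of the remaining UMIs of other cell types in the ratios was not tested.

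**Figure D1:**
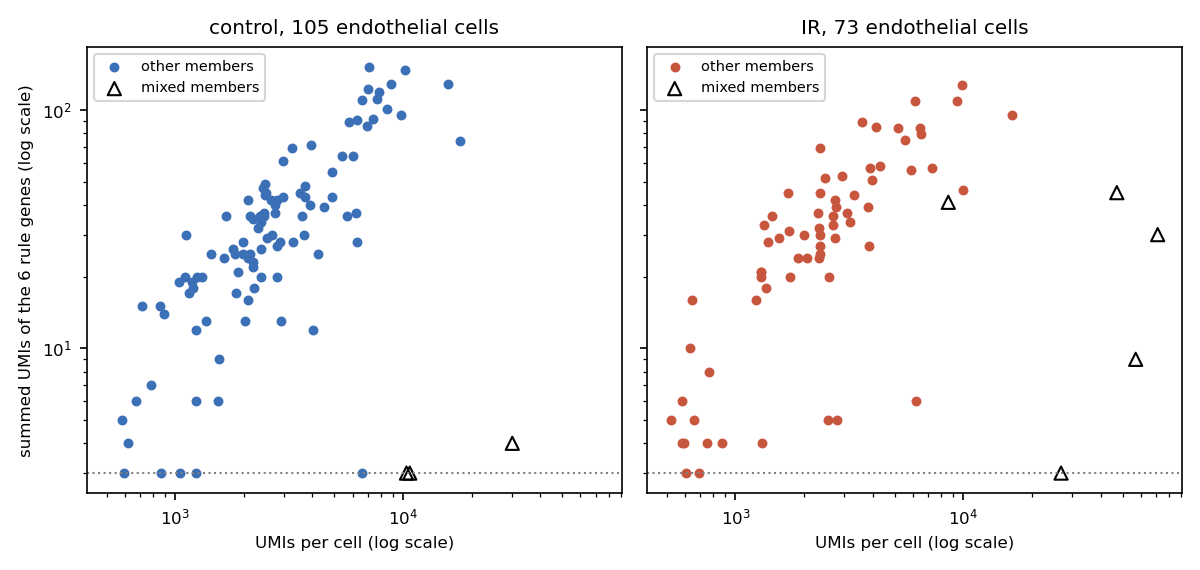
UMIs per cell (x axis, log scale) against the summed UMIs of the 6 rule genes (y axis, log scale) for each endothelial cell of the control and IR libraries. Dots are members, open triangles the 3 control and 5 IR mixed members, and the dotted line the minimum of 3 UMIs; 4 IR triangles lie at 26803 UMIs or more.

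UMIs were summed over the endothelial cells of a library and scaled to counts per 1000000 UMIs (CPM). With all members, 4788 genes had at least 20 UMIs over both libraries. Of these, 138 (2.88%) were at least 2-fold higher and 723 (15.1%) at least 2-fold lower in the IR library. The median gene was at 0.729 times its control level, and the split of higher and lower genes depended on the scaling. Relative to the median gene the counts were 287 (5.99%) and 228 (4.76%). Without mixed members the median gene was at 1.03 times its control level, and of 4118 genes, 155 (3.76%) were at least 2-fold higher and 181 (4.4%) at least 2-fold lower relative to it. Values below are ratios of IR over control relative to the median gene, without mixed members unless stated, and these shares are the background for each list. Leaving out mixed members and scaling to the median gene were choices made after the data were seen.

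The 6 rule genes were at similar levels in the libraries, a description because the rule used them. Plvap had 3635 and 3425 CPM in the control and IR library, and UMIs in 95.1% and 95.6% of cells, against 0.201% and 0.689% of B cells, which should lack it. The ratios were 0.911 (0.83 to 0.999) for Plvap, 0.918 (0.78 to 1.08) for Pecam1, 0.917 (0.826 to 1.02) for Flt1, 1.1 (0.963 to 1.27) for Kdr, 1.16 (1.03 to 1.31) for Emcn and 1.24 (1.0 to 1.53) for Cdh5. None was past 2-fold. Over the 24 other pan-endothelial genes the median ratio was 1.01, with 0 higher and 1 lower of 24 past 2-fold. That one was Cldn5, a tight-junction protein, with 115 UMIs in 15 control cells and 34 UMIs in 11 IR cells, a ratio of 0.477 (0.315 to 0.704). Its UMIs lay in few cells, and 1 control cell with lymphatic genes held 32 of them. Without the 3 leukocyte-marked cells, which hold no Cldn5 UMI, its UMIs were the same and the smaller IR total put the ratio at 0.538. Tspan7, a tetraspanin, was at 1.93 (0.921 to 4.12), and at 2.18 on that scale. Mmrn2, a matrix protein of vessels, was also lower at 0.67 (0.486 to 0.914).

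**Figure D2:**
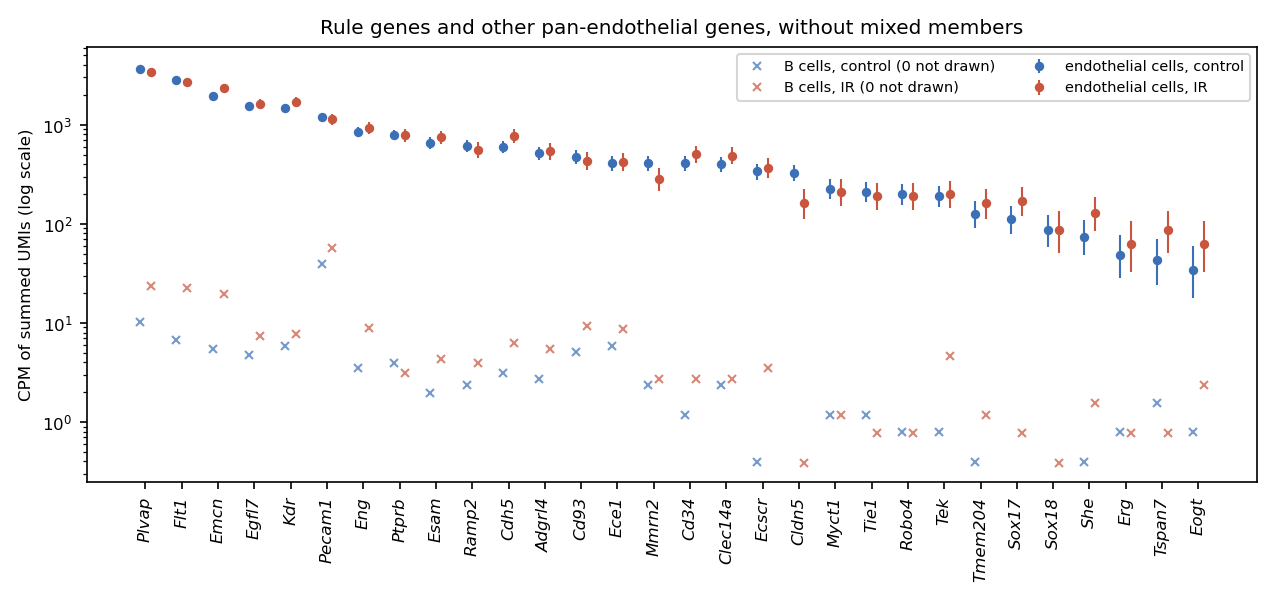
CPM of summed UMIs (y axis, log scale) of the 6 rule genes and 24 other pan-endothelial genes in endothelial cells without mixed members (dots, with exact Poisson intervals) and in B cells (crosses, 0 not drawn), for the control and IR libraries. Every gene lies above its level in B cells in both libraries, and Cldn5 is the one gene past 2-fold between libraries.

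Among genes outside the rule with at least 25 UMIs and in at least 10% of control endothelial cells, the highest ratios to all other control cells were those of Cldn5, Tcf15, Sox18, Sox17 and Cyyr1. Tcf15, Sox17 and Sox18 are transcription factors of endothelium. They were followed by Tmem252, Car4, Apold1, Myct1, Grrp1, Rbp7, Robo4, Esam, Ces2e and Sdpr. With all members, mixed ones included, 63.8% of 2355 genes in the control and, with IR, 35.7% of 1868 were at least 2-fold higher than in other cells, so a ratio above 2 is common in this comparison. The 15 genes were chosen for high values in the control library, which lowers their ratios of IR over control, and those ratios are given as a description. Tmem252 stood at 0.504 (0.262 to 0.915), and at 0.492 without the leukocyte-marked cells. Rbp7, which binds retinol and was the most abundant of the 15, had 2617 and 2395 CPM and a ratio of 0.885 (0.792 to 0.987).

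Capillary genes were found in nearly all cells. With each cell thinned to 1000 UMIs, at least 1 UMI of the list was expected in 95.3% (88.8 to 98.6) of control and 98.9% (91.6 to 100) of IR cells, and 9 control and 12 IR members with fewer UMIs were left out. Unthinned, B cells had one in 13.1% and 16.8%. The list had 0 higher and 1 lower of 11 past 2-fold and a median of 1.15. The lower one was Car4 (chr11:84957786-84966044 in GRCm38), with 119 UMIs in 52 control cells and 32 UMIs in 15 IR cells. Its ratio was 0.434 (0.284 to 0.645), 0.396 with all members and 0.489 without the leukocyte-marked cells. Thinned, Car4 was expected in 30.9% (21.7 to 41.3) of control and 12.7% (5.28 to 24.3) of IR cells, and these intervals overlap slightly. B cells had it in 0.101% and 0.0984%. Other capillary genes went the other way or stayed close. Cd36, a fatty acid transporter, had 97 UMIs in 35 control cells and 118 UMIs in 35 IR cells, a ratio of 1.96 (1.49 to 2.59), and 2.19 without the leukocyte-marked cells. Fabp4, which binds fatty acids within the cell, was at 1.35 (1.22 to 1.48) and its relative Fabp5 at 1.71 (1.04 to 2.81). Gpihbp1, which carries lipoprotein lipase across the capillary wall, was at 0.86 (0.709 to 1.04) and Rgcc at 1.03 (0.854 to 1.24). Car4 and Cd36 were together in 19 of the 35 control cells with Cd36 and in 8 of the 35 IR cells with Cd36 (54.3% and 22.9%), close to the 49.3% and 21.2% of cells without Cd36 that had Car4.

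Gja4, a connexin of arterial endothelium, had 47 UMIs in 20 control cells and 29 UMIs in 13 IR cells, a ratio of 0.995 (0.604 to 1.61). Cells with Gja4 also had the chemokine Cxcl12 in 17 of 20 cases (control) and 11 of 13 (IR), against 31.7% and 30.9% of the cells without it. Stmn2 was found in 8 of 20 and 7 of 13, against 9.76% and 10.9%. Esm1, which is not an arterial gene, was also more frequent with Gja4, in 16 of 20 and 10 of 13 cells against 45.1% and 40% without it. These shares were not thinned and leave out mixed members. Over the arterial list the median was 1.32 with 2 higher and 0 lower of 11 past 2-fold, and 8 of 11 were above 1. The higher ones were Fbln5, with 14 UMIs in 6 control cells and 24 UMIs in 8 IR cells, and Hey1, with 11 UMIs in 6 control cells and 15 UMIs in 9 IR cells, a transcription factor downstream of Notch. Dll4, a Notch ligand, was at 1.73 (1.11 to 2.7) and Efnb2, an ephrin of arteries, at 1.39 (0.948 to 2.02).

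**Figure D3:**
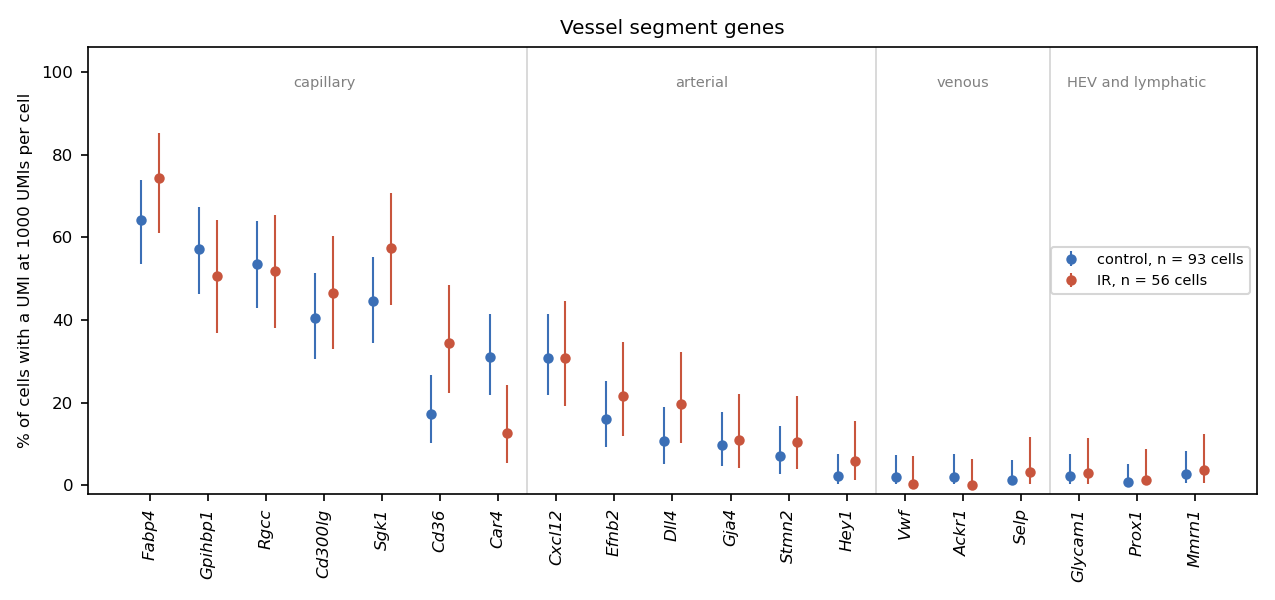
Expected percentage of endothelial cells with a UMI of each vessel segment gene after thinning to 1000 UMIs per cell (y axis), for 93 control and 56 IR cells without mixed members; bars are Clopper-Pearson intervals. Fabp4 stands highest in both libraries, Car4 is lower and Cd36 higher in the IR library, and the venous, HEV and lymphatic genes drawn, which do not include the widespread venous gene Ehd4, lie near 0.

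Venous genes had 1 higher and 4 lower of 10 past 2-fold and a median of 0.84. Not thinned, at least 1 UMI of the list was present in 90.2% of control and 89.7% of IR cells, against 34.2% and 33.7% of B cells. The most abundant was Ehd4, with 310 UMIs in 83 control cells and 174 UMIs in 49 IR cells, a ratio of 0.905 (0.747 to 1.09). The defining venous genes lay in few cells. Vwf, which carries clotting factor VIII, had 17 UMIs in 3 control cells and 3 UMIs in 2 IR cells. Ackr1, a chemokine receptor of venules, had 21 UMIs in 3 control cells and 1 UMI in 1 IR cell, and P-selectin (Selp) 6 UMIs in 5 control cells and 29 UMIs in 4 IR cells, of which 1 IR cell held 24. Of the Ackr1 UMIs, 13 lay in the 2 control cells with Glycam1 described next, as did 66 of the 84 control UMIs of the venous gene Lrg1. HEV genes had 0 higher and 4 lower of 4 past 2-fold, at a median of 0.17 with Fut7, which had 0 UMIs in IR cells, set to 3 UMIs. With at least 10 UMIs of the rule genes and no other criterion Enpp2, 1 of the 4, was higher in the IR library (log2 ratio 0.82). In the control library 2 members had Glycam1, the L-selectin ligand of HEVs, with 2898 and 93 UMIs, and the same cells had Fut7 (13 and 10 UMIs) and Chst4 (2 and 3 UMIs), enzymes that make L-selectin ligands, and Ccl21a (312 and 72 UMIs). The ratios of these genes rest on those cells. In the IR library Glycam1 had UMIs in 3 members, with 58 in 1 of them and 6 in another, and no member had a UMI of Fut7, which allows up to 4.11% of cells with a UMI at this depth. A further IR barcode with 96 UMIs of Glycam1, 166 of Enpp2 and 15 of Madcam1 was left out by the rule, with 24 UMIs of the collagen genes and 1 of the B-cell genes. Lymphatic genes had 1 higher and 1 lower of 3 past 2-fold. The lower one was Ccl21a, at 0.129 (0.0868 to 0.187). Of its 386 control UMIs, 312 and 72 lay in the 2 control cells with Glycam1, so this call rests on the same cells as the HEV genes. Mmrn1, a marker of lymphatic vessels, had UMIs in 3 cells of each library. In 1 IR cell it stood at 21 UMIs beside 31 of Ccl21a and 4 of Lyve1, and Prox1, the regulator of lymphatic identity, had 1 UMI in each of 2 of the 3 control cells.

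Of the genes that present antigen or respond to interferon, 19 of 24 were below 1 and the median was 0.89, with 0 higher and 1 lower of 24 past 2-fold. The lower one was Irf7, a transcription factor of the interferon response, with 95 UMIs in 47 control cells and 29 UMIs in 16 IR cells, a ratio of 0.492 (0.313 to 0.753), and 0.567 without the leukocyte-marked cells, where its UMIs were 93 and 29 and the smaller IR total moved the ratio. Isg15, a ubiquitin-like protein, had 340 UMIs in 59 control cells and 148 UMIs in 35 IR cells, a ratio of 0.702 (0.575 to 0.854), and Ifitm3 stood at 0.761 (0.687 to 0.842). Irf7 and Isg15 were lower in B cells too, at 0.386 and 0.487, whereas Ifitm3 was at 2.16 there. The class I genes H2-D1, at 0.94 (0.848 to 1.04), and B2m, at 0.94 (0.846 to 1.04), differed less. The class I gene H2-K1, the most abundant of the list with all members, did not. Without the leukocyte-marked cells it had 1189 control and 479 IR UMIs, a ratio of 0.732. MHC class II genes had 1 higher and 0 lower of 4 past 2-fold, and Cd74, their chaperone, was at 1.02 (0.821 to 1.27), with UMIs in few cells. Without the leukocyte-marked cells the 3 genes that kept 20 UMIs were all past 2-fold lower, Cd74 at 0.397, H2-Aa at 0.287 and H2-Ab1 at 0.227. Irf7 was seen in 38 of the 59 control and 15 of the 35 IR cells with Isg15.

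**Figure D4:**
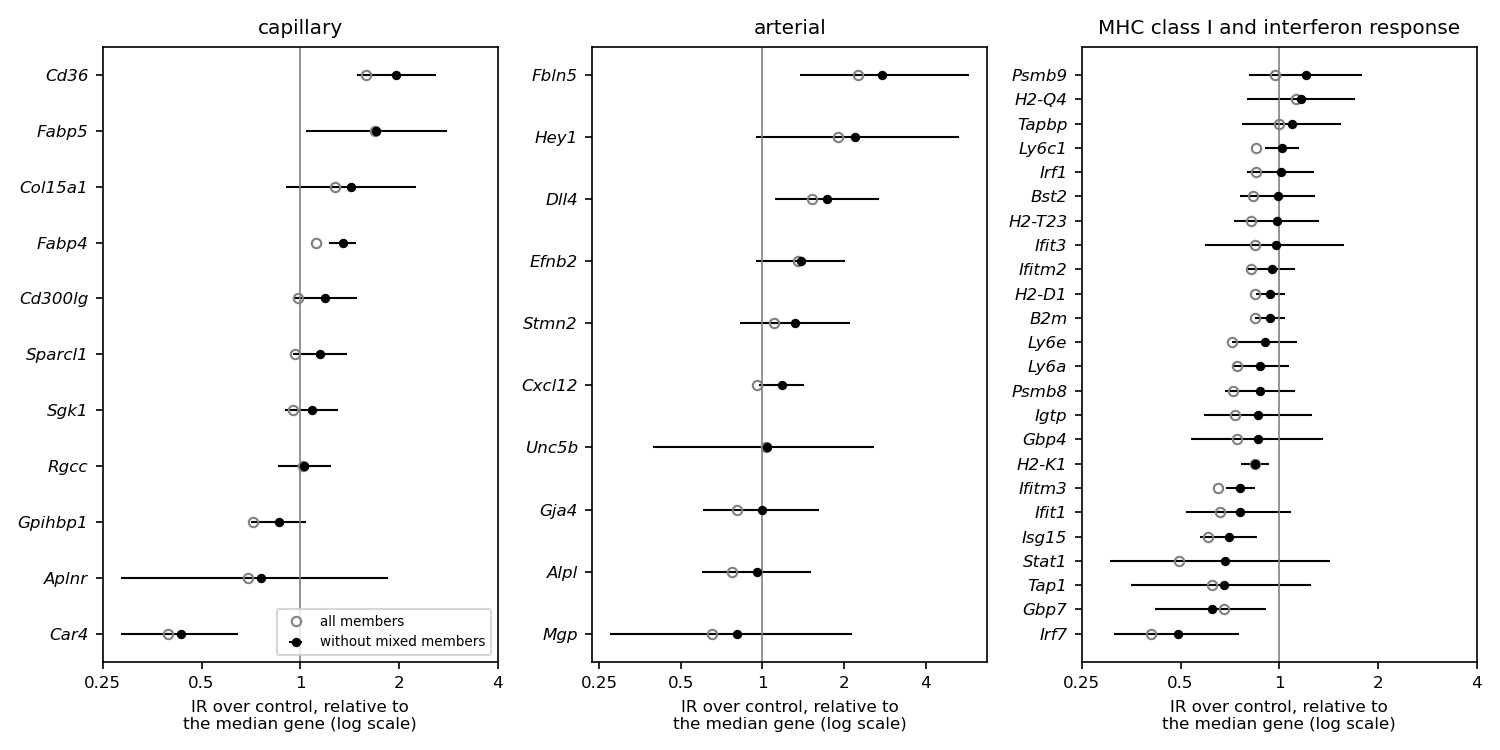
Ratio of IR over control relative to the median gene (x axis, log scale) for the genes of 3 lists with at least 20 UMIs. Filled dots with exact conditional binomial intervals leave out mixed members, open dots hold all members; Car4 and Irf7 are the lowest of their lists, and Fbln5 and Cd36 the highest of theirs.

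Receptors and signalling genes were mostly within 2-fold. Of the VEGF and angiopoietin genes, 1 higher and 0 lower of 12 were past 2-fold with a median of 1.05. The higher one was the VEGF co-receptor Nrp2, with 42 UMIs in 27 control cells and 58 UMIs in 21 IR cells, a ratio of 2.23 (1.47 to 3.39), and 1.69 without the leukocyte-marked cells, while Nrp1 was at 0.95 (0.815 to 1.11). Of the BMP and TGF-beta genes, 12 of 13 were above 1 with a median of 1.21 and none past 2-fold. Bmpr2, a BMP receptor, was at 1.72 (1.19 to 2.51) and Id3, a target of BMP signals, at 1.48 (1.23 to 1.77). The Notch list had 1 higher and 0 lower of 6 past 2-fold and a median of 1.13, and 5 of 6 were above 1. The 1 below was the target Hes1, at 0.666 (0.469 to 0.934). A list of 13 other receptors had 1 higher and 1 lower of 8 past 2-fold and a median of 1.1. The insulin receptor Insr had 42 UMIs in 22 control cells and 10 UMIs in 9 IR cells, a ratio of 0.384 (0.172 to 0.777), Cd44, a receptor of hyaluronan, 7 UMIs in 3 control cells and 15 UMIs in 2 IR cells, a ratio of 3.45 (1.33 to 10.0) and of 0.909 without the leukocyte-marked cells, and Igf1r was at 1.81 (1.01 to 3.28). Vasoactive and haemostasis genes had 2 higher and 1 lower of 15 past 2-fold and a median of 0.948. Calcrl, a receptor of adrenomedullin, was at 2.02 (1.33 to 3.07) and Edn1, the vasoconstrictor endothelin, at 2.1 (0.849 to 5.34).

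Genes of the vessel wall were close in the libraries. Basement membrane and matrix genes had 0 higher and 0 lower of 15 past 2-fold and a median of 1.07. Their summed level was 7733 and 7771 CPM in control and IR endothelial cells, 3316 and 2665 CPM in stromal cells and 37.2 and 40.4 CPM in macrophages. The secretory list took 374060 and 393715 CPM in stromal cells, 339711 and 311190 in macrophages, and 53529 and 41491 in endothelial cells. A larger secretory share lowers the CPM of all other genes, so the gap to stromal cells and macrophages is overstated. Col4a1 was at 1.23 (1.01 to 1.49) and Sparc, the most abundant of the list, at 0.86 (0.762 to 0.969). Junction genes had 0 higher and 1 lower of 13 past 2-fold, which was Cldn5, and those of caveolae and diaphragms 0 higher and 0 lower of 9, with medians of 0.902 and 1.12. Genes of tip cells and angiogenesis had 0 higher and 0 lower of 5 past 2-fold, and Esm1, a proteoglycan of tip cells, was at 0.758 (0.632 to 0.907). Of 17 endothelial transcription factors none was past 2-fold, and Klf2, which responds to flow, was at 1.48 (1.29 to 1.71).

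Ligands that endothelium can give to its neighbours were led by Igfbp7, with 7419 and 7179 CPM, and Igfbp3. The list had 1 higher and 1 lower of 12 past 2-fold and a median of 1.24. The neurotrophin Ntf3 had 13 UMIs in 11 control cells and 11 UMIs in 11 IR cells, and Bdnf, Wnt2 and Hgf had 0 UMIs in 105 control and 73 IR cells, which allows up to 2.86% and 4.11% of cells with a UMI and does not limit the share of cells that express them. Cyr61, a matricellular protein, was at 1.51 (1.08 to 2.1), and Igfbp5 had 39 UMIs in 5 control cells and 2 UMIs in 2 IR cells, but was higher in the IR library (log2 ratio 0.50) with at least 10 UMIs of the rule genes and no other criterion. Leukocyte recruitment genes had 2 higher and 3 lower of 14 past 2-fold. The chemokine Cxcl10 had 23 UMIs in 6 control cells and 86 UMIs in 5 IR cells. Without the leukocyte-marked cells it had 23 and 84 UMIs, a ratio of 6.64. Glycam1, the most abundant of the list in the control library with all members, went the other way, at 0.035 (0.027 to 0.0448).

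Stress genes were mostly within 2-fold. Heat shock genes had 0 higher and 0 lower of 12 past 2-fold, a median of 0.858 and 9 of 12 below 1, with Hsph1 at 0.512 (0.319 to 0.798) and Hsp90aa1 at 0.711 (0.617 to 0.819), and in B cells these genes were at 0.158 and 0.41. Immediate early genes, which respond within minutes and also to dissociation, had 0 higher and 0 lower of 19 past 2-fold and a median of 1.11, with Klf6 at 1.92 (1.5 to 2.47) and Fos at 1.44 (1.3 to 1.6). Without the leukocyte-marked cells Klf6 was at 1.48 and Fos at 1.59. The p53 target Cdkn1a, an inhibitor of the cell cycle, had 506 UMIs in 66 control cells and 235 UMIs in 44 IR cells, a ratio of 0.749 (0.639 to 0.876), and the 6 p53 and senescence genes with enough UMIs had a median of 1.03 with none past 2-fold. Cdkn2a had 0 UMIs. Actin and cytoskeleton genes had a median of 0.884, with S100a6 at 0.452 (0.309 to 0.649). Of the lipid handling genes, 0 higher and 0 lower of 9 were past 2-fold. Apoe, which carries lipids, had a ratio of 0.592 (0.503 to 0.695), and Pltp, which moves phospholipids between lipoproteins, 0.649 (0.475 to 0.877).

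**Figure D5:**
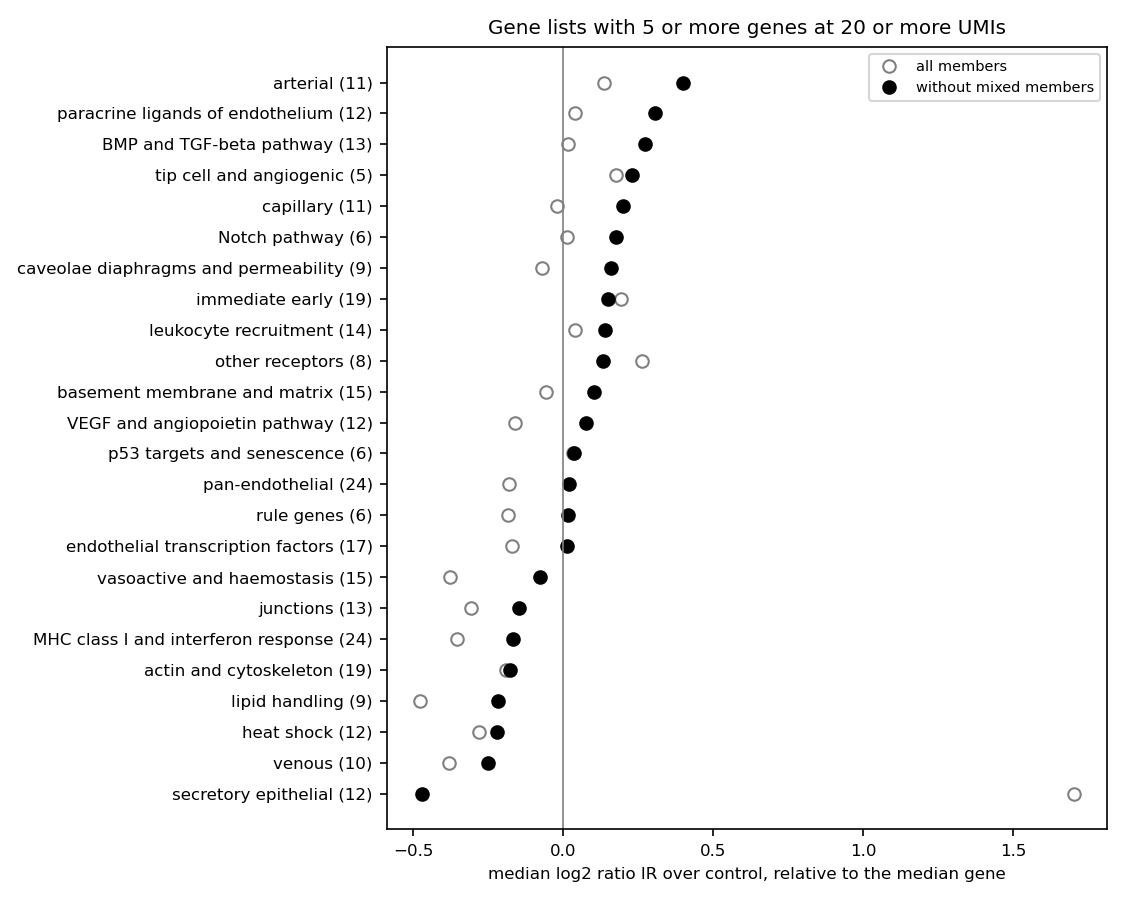
Median log2 ratio of IR over control relative to the median gene (x axis) for each list with at least 5 genes at 20 or more UMIs, with the number of genes in brackets. Filled dots leave out mixed members and open dots hold all members; the secretory epithelial list moves from 1.70 to -0.47 when mixed members are left out, and no list shown is past 2-fold without them.

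The 10 lowest with all members were Marco, Serpina1e, Glycam1, Igfbp5, Ackr1, Bpifb2, Csf1r, Hba-a1, Cyp26b1 and Ccl21a, and the 10 highest Krt23, Rgs1, Ccr7, Wfdc18, Ccl5, Cldn3, Gjb2, Cryab, Dcpp1 and Sox9. Without mixed members Rgs1 had 1 UMI in 1 control cell and 27 UMIs in 3 IR cells. Without the leukocyte-marked cells too, it had 0 control UMIs and 1 IR UMI. Krt23, Bpifb2, Csf1r, Gjb2 and Marco had at most 1 UMI in each library without mixed members, and the ratio of Dcpp1, a secretory gene, went from 18.2 to 0.478, and to 0.517 without the leukocyte-marked cells. Cyp26b1, an enzyme that breaks down retinoic acid, had 26 UMIs in 19 control cells and 2 UMIs in 2 IR cells, a ratio of 0.124 (0.0143 to 0.495). Without the leukocyte-marked cells it had 26 UMIs and 1 UMI, a ratio of 0.0699. With all members its level was 183 times that of other cells in the control and 17.1 times (1.68 to 95.5) in the IR library. Hba-a1, a haemoglobin gene, was at 0.0984 (0.0776 to 0.123), at 0.0658 in B cells, 0.344 in macrophages and 1.4 in stromal cells, where it had 35 control and 20 IR UMIs. With all members, 4 control and 3 IR members held 91.4% and 67.0% of the red blood cell UMIs of their library. In 1 control member these were 713 of 1237 UMIs, and in another 1507 of 2909. Both count as unmixed, since that definition did not use these genes. Gm42418 was at 0.258 (0.226 to 0.293), and at 0.298 in B cells, 0.247 in macrophages and 0.632 in stromal cells.

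By a rule set after the values were seen, genes in at least 15 cells of either library without mixed members were ranked too. Among the 15 highest were Marcks, a membrane protein that binds actin, with 82 UMIs in 43 control cells and 125 UMIs in 39 IR cells, a ratio of 2.46 (1.85 to 3.29), and Gadd45g, a stress-induced gene, with 43 UMIs in 22 control cells and 72 UMIs in 21 IR cells, a ratio of 2.7 (1.83 to 4.04). In B cells these were at 1.59 and 0.741, in macrophages at 2.23 and 1.51, and in stromal cells at 0.698 and 1.9. Marcks and Gadd45g were in at least 15 cells of both libraries, and so were Gm4951 (15 and 18 cells) and Cers4 (15 and 19). Genes that passed through 1 library alone are not described under this rule, since the filter then fixes their direction. Cyp26b1, described above as 1 of the 10 lowest, passed through the control library alone.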

How the data were processed

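The deposited values are raw UMI counts per gene and barcode. Per the submitters' processing notes the authors used Cell Ranger 3.0.1 and Seurat 3 with mm10. Of 5550 control and 7793 IR barcodes, 4105 and 6257 were kept. Counts were summed by symbol and over the endothelial cells of each library, and scaled to CPM. Ratios have exact conditional binomial, sums exact Poisson and shares Clopper-Pearson intervals (scipy 1.17.1, numpy 2.4.6). A gene was compared if the 2 libraries together held 20 or more of its UMIs, and called at 2-fold. Thinned shares are the expectation over all draws of 1000 UMIs per cell; a first version used 1 random draw, whose noise was as large as some differences, and was replaced after its values were seen. Doublet scores came from scanpy 1.11.5 and TMM factors from edgeR 4.0.16 in R 4.3.3. Promoters of 1 chromosome were not analysed here. Positions are from GENCODE M21 (GRCm38).

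Members and lists were chosen with earlier results of these data known. Genes were named if in the rule, if in 1 of 37 lists, with ratios for those with at least 20 UMIs and counts for the rest, if among the 10 highest or lowest ratios with at least 1 UMI in each library, or if among the 15 highest over other control cells with at least 25 UMIs and in 10% of cells. The definition of mixed members, the scaling to the median gene the other limits for mixed members, leaving out members with 10 or more leukocyte UMIs, the alternative of 10 endothelial UMIs with no other criterion, and the 15-cell rule were added after the data were seen. The steps were tested on simulated counts with counting error only, drawn from all members. Of 4588 unchanged genes, 214 were past 2-fold. Of 100 genes changed 2-fold, 55 were past 2-fold, and of 100 changed 4-fold, 98 were. 1 gene of the lists is not reported here.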

Additional observations from a re-analysis of the deposited data

How the results depend on the processing

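With 1 library per condition, differences between mice, dissociations or libraries cannot be told apart from the treatment, and intervals are too narrow for that purpose. Genes under about 20 UMIs have wide intervals. No paired analysis was possible because each group has 1 library and no replicate numbers.

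The endothelial share in the control library was 2.56%, and 3.21% with at least 500 genes and 5.04% of cells without Ptprc. In the IR library it was 1.17%, and 0.908% with a mitochondrial limit of 5% and 2.79% of cells without Ptprc. The share was lower in the IR library under every alternative run.

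Counts of genes at least 2-fold higher and lower in the IR library were 138 and 723. They were 246 and 247 without abundant genes in the scaling, 256 and 252 with TMM factors, 365 and 427 with the mean over cells, 36 and 260 at 50 UMIs per gene, 362 and 1347 at 10, 259 and 1917 at 1.5-fold, 63 and 174 at 3-fold, and 287 and 228 relative to the median gene. The counts were 253 and 979 with an endothelial sum of at least 10 and no other criterion. They were 175 and 163 without members with Ptprc or Epcam, and 197 and 164 without mixed members, at each of 3 limits. Leaving out the 3 leukocyte-marked cells too, the counts were 149 and 168, and 0 lists with at least 5 genes were past 2-fold. Of the lists with at least 5 genes compared, 4 were past 2-fold, 1 at 50 UMIs per gene, and 0 without members with Ptprc or Epcam or without mixed members. The HEV list left this count without mixed members because 4 of its genes could be compared, and its median was 0.17 relative to the median gene with Fut7 at 3 UMIs, against 0.105 with all members. Fewer genes pass a higher minimum by construction, and the other causes were not tested.

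Thinned, with all members, capillary genes were in 92.5% of control cells, 98.3% at an endothelial sum of 5 and 98.5% at 10 with no other criterion. In IR cells they were in 94.2%, 99.8% without Ptprc or Epcam, 98.9% without mixed members, 99.3% without leukocyte-marked cells too, and 100% when not thinned. Not thinned, arterial genes were in 77.1% of control and 80.8% of IR cells (thinned 56.7% and 64.0%), HEV genes in 18.1% and 24.7% (8.65% and 10.3%) and lymphatic genes in 21.9% and 20.5% (11.2% and 8.98%).

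On the log2 scale the secretory list reversed to -0.34 without Ptprc or Epcam and -0.47 without mixed members, Dcpp1 to -0.88 and -1.07, and Wfdc18 to -1.85 and -2.31. Without mixed members Sox9 reversed to -0.31 and Marco to 0.69. Marco was 0.31 and Csf1r 1.31 at an endothelial sum of 5, and at 10 with no other criterion Csf1r was 1.82, Enpp2 0.82 and Igfbp5 0.50. Without mixed and leukocyte-marked cells the secretory list was at -0.36, Dcpp1 -0.95, Marco 0.86, Sox9 -0.14 and Wfdc18 -2.14. Lrg1 was 0.22 without the 6% highest doublet scores. The causes were not tested.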
